A study of Rattus norvegicus with 12 samples.

Results

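Cyclic nucleotide phosphodiesterases were followed through 10 genes, Pde1a, Pde1b, Pde1c, Pde2a, Pde4a, Pde4b, Pde4d, Pde7b, Pde9a and Pde10a, in rat dorsal striatum. All array probes whose gene name in the scanner output was one of these symbols were taken, which gave 13 probes of 41012 probes and 10 genes of 35561 gene names on the array. Pde1c had 2 probes, Pde4d had 3 and each of the other genes had 1. The rule used gene names and no measured value. Phosphodiesterases end cyclic nucleotide signals by hydrolysing cAMP, cGMP or both. In striatal projection neurons, dopamine acts on adenylyl cyclase through its receptors, and the phosphodiesterases set how long and how far the resulting cAMP signal lasts. Striatal neurons are known for high expression of Pde10a and Pde1b, whose products hydrolyse both nucleotides.

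RNA came from the dorsal striatum of 12 male rats, 1 rat per array, with punches of each rat's striatum pooled. Every rat had received 9 µg of 6-hydroxydopamine (6-OHDA), a toxin of dopamine neurons, in the left substantia nigra pars compacta, and no unlesioned rat was on these arrays. The 4 groups had 3 arrays each. The 6-OHDA group had the lesion alone. The HFS group had 5 days of high frequency stimulation of the subthalamic nucleus, given as 80 µs pulses of 60 µA at 130 Hz. The DOPA group had 19 days of levodopa (L-DOPA), as 2 daily injections of 25 mg/kg with 12.5 mg/kg of benserazide, a blocker of its breakdown outside the brain. The DOPA/HFS group had that course with the same 5 days of stimulation. The authors describe a second anaesthesia and an implanted electrode for the HFS and DOPA/HFS rats only. Stimulation and electrode surgery therefore cannot be told apart in these groups. No vehicle injections are described for the groups without L-DOPA, so L-DOPA and the injections cannot be told apart either. Stimulation ran until killing, whereas the last L-DOPA injection came hours before it. The design asks whether stimulation, L-DOPA or both alter striatal expression, and whether the effect of one depends on the other.

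Between 50.5% and 63.2% of the probes were well above background on each array. Each group had 1 array on each of 3 slides, always in its own position, so position and treatment cannot be told apart. The tissue label was borne out by 8 striatal projection neuron markers, all present on the array and well above background wherever a value was kept. The 7 with a value on all arrays summed to a log2 signal of 17.2 to 17.7 in the 6-OHDA group and 17.3 to 17.6 over the other groups. The summed markers of oligodendrocytes (17.3 to 17.6), astrocytes (15.6 to 15.9) and microglia (13.03 to 13.47) overlapped between all groups, and of 5 cortical markers 1 was found, Slc17a7, at 4.35 to 7.76. The summed choroid plexus markers did differ, at 12.1 to 16.4 for HFS, above every 6-OHDA (8.06 to 8.62) and DOPA/HFS (8.14 to 9.81) array. On array 2 of HFS most of the sum came from the marker Ttr, at 11.9. Sostdc1, Clic6 and Aqp1 were also above all 6-OHDA arrays there. Otx2 (7.37), Kl (3.28) and Folr1 (7.85, not in the sum) were within the 6-OHDA range on that array. The sums ranged from 7.87 to 13.99 on the DOPA arrays. Whether the tissue taken or its expression differed between the groups was not tested. The signals of 3 arrays were at an extreme of the series. Array 2 of the 6-OHDA group had the lowest score, -67.0, on the first principal component of 18333 genes. Array 1 of DOPA/HFS had the highest score, 38.7, close above array 3 of HFS at 33.8. Array 3 of DOPA/HFS had 4175 spots marked as outliers against 2 to 25 on the others. The arrays measured bulk tissue, in which fewer cells of a type and less RNA per cell cannot be told apart.

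Of the 13 probes, 12 passed the filter on dim probes and represented all 10 genes. One Pde1c probe, A_44_P538328, was well above background on 0 of 12 arrays and gave no level. One Pde4d probe, A_44_P311334, was well above background on 11 arrays, and the others were on 12. None was saturated. The accessions of 12 probes matched the same symbol in the RefSeq table, and that of the remaining Pde4d probe was not in it. Values below are log2 signals, quantile normalized between arrays, so a difference of 1 is a doubling. Levels of different probes are not comparable, since probes bind with different strength.

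RefSeq promoter windows of 300 bases were at hand for 7 of the genes, in 17 windows on the GRCr8 build. They were searched on both strands for the cAMP response element, TGACGTCA, through which cAMP drives transcription by CREB, and for its partial element, TGACG or CGTCA, which also lies inside the full element. The full element was in 0 of these 17 windows, against 1.83% of 33469 windows in the whole table. Pde4a, Pde4d and Pde10a had a partial element in 5 windows, against 21.2% of all windows. A Pde4d start and a Pde10a start had 2 partial elements each, as 4.96% of all windows had 2 or more. The 250 bases upstream of these 2 starts are shown because cAMP is the substrate of both enzymes, with the partial elements in capitals. The Pde4d stretch lies at chr2:42592499-42592748 on the plus strand, and the Pde10a stretch at chr1:54765669-54765918 on the minus strand. The probes were not assigned to single start sites, and a match is a description of the letters only.
Pde4d: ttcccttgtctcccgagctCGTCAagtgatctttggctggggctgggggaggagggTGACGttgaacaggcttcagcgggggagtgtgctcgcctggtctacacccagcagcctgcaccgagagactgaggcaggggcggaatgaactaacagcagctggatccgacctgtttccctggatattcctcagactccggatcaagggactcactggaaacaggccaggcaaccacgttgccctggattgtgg
Pde10a: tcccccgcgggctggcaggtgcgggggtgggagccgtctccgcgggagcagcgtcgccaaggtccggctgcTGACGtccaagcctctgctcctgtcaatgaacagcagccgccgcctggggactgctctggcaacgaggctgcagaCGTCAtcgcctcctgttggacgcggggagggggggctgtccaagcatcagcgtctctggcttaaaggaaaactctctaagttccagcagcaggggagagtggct

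The calcium and calmodulin dependent enzymes, which hydrolyse cAMP and cGMP when calcium enters the cell, are encoded by Pde1a, Pde1b and Pde1c. Pde1a signal was 7.16, 6.31 and 7.13 on the 6-OHDA arrays, 5.90, 7.89 and 8.15 on the HFS arrays, 7.22, 7.38 and 7.58 on the DOPA arrays, and 6.84, 7.56 and 6.98 on the DOPA/HFS arrays. It had the widest range of the 10 genes, 2.24 log2 units, and both the lowest and the highest value were in the HFS group. All 3 DOPA arrays were above all 6-OHDA arrays, but the nearest values differed by only 0.06. Pde1b signal was 13.44, 13.10 and 13.85 in the 6-OHDA group, 13.24, 13.69 and 13.86 in the HFS group, 13.57, 13.34 and 13.64 in the DOPA group, and 14.21, 13.26 and 13.46 in the DOPA/HFS group. Every pair of groups overlapped for Pde1b, and its highest value was on array 1 of DOPA/HFS. The Pde1c probe that passed gave 6.80, 5.40 and 6.64 in the 6-OHDA group, 6.25, 6.27 and 6.91 in the HFS group, 6.91, 6.94 and 7.13 in the DOPA group, and 6.78, 6.66 and 6.78 in the DOPA/HFS group. The DOPA arrays were above every 6-OHDA and every DOPA/HFS array, while array 2 of the 6-OHDA group stood well below every other array.

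Pde2a encodes an enzyme of both nucleotides that cGMP itself stimulates. Its signal was 12.86, 12.39 and 13.25 in the 6-OHDA group, 12.74, 13.20 and 13.54 in the HFS group, 13.04, 12.81 and 12.96 in the DOPA group, and 13.60, 12.60 and 12.99 in the DOPA/HFS group. No pair of groups was separate, and the lowest and highest values again came from array 2 of 6-OHDA and array 1 of DOPA/HFS. Pde10a, the dual-substrate enzyme enriched in striatal projection neurons, gave 14.81, 14.70 and 15.26 in the 6-OHDA group, 14.86, 15.01 and 14.94 in the HFS group, 15.20, 14.96 and 14.84 in the DOPA group, and 15.40, 14.80 and 14.52 in the DOPA/HFS group. Its SD within these groups was 0.30, 0.07, 0.18 and 0.45 in that order (n = 3), while the widest gap between group means was -0.09, for DOPA/HFS against DOPA. The DOPA/HFS arrays alone spanned the range of the other 9 arrays, and the 4 groups accounted for 2.24% of the squared deviations of Pde10a, the smallest share among the 10 genes.

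**Figure D1:**
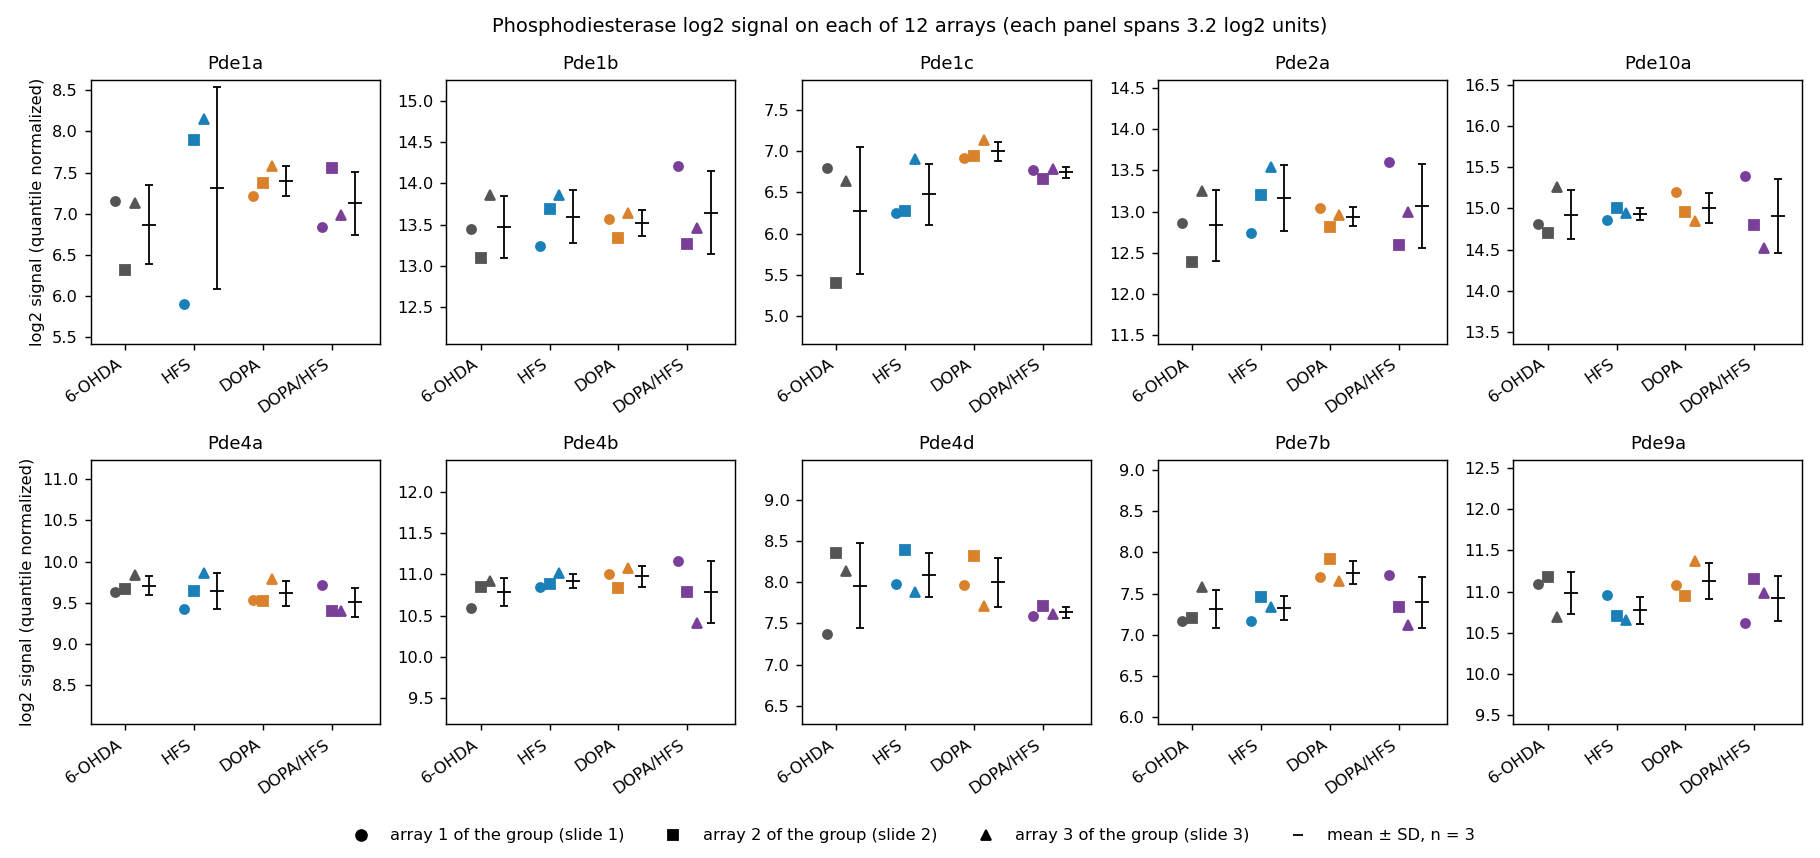
Log2 signal of the 10 genes on each of 12 arrays, by group. Symbols mark the slide and the bar beside each group is the mean ± SD (n = 3). The DOPA arrays lie above the 6-OHDA arrays for Pde1a, Pde1c and Pde7b, and the groups of Pde1b, Pde2a and Pde10a overlap throughout.

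The cAMP-specific enzymes of the rolipram-sensitive family are encoded by Pde4a, Pde4b and Pde4d. Pde4a was the least variable of the 10 genes, from 9.40 to 9.87 over all arrays, with group means of 9.71 ± 0.11 for 6-OHDA, 9.65 ± 0.22 for HFS, 9.61 ± 0.15 for DOPA and 9.51 ± 0.18 for DOPA/HFS (SD, n = 3). Pde4b signal was 10.59, 10.84 and 10.92 in the 6-OHDA group, 10.85, 10.88 and 11.01 in the HFS group, 11.01, 10.83 and 11.08 in the DOPA group, and 11.17, 10.78 and 10.41 in the DOPA/HFS group. As for Pde10a, the DOPA/HFS arrays held both the highest and the lowest Pde4b value. Pde4d, read by its brightest probe, A_43_P11785, gave 7.37, 8.36 and 8.14 in the 6-OHDA group, 7.98, 8.39 and 7.88 in the HFS group, 7.97, 8.31 and 7.71 in the DOPA group, and 7.59, 7.71 and 7.61 in the DOPA/HFS group. The DOPA/HFS arrays were below all HFS arrays, barely overlapped the lowest DOPA array and lay above array 1 of 6-OHDA. A second Pde4d probe of the same accession, A_44_P683068, gave 7.11, 7.17 and 7.16 in DOPA/HFS, below all HFS arrays (7.27 to 7.53) and all DOPA arrays (7.42 to 7.50). The third probe, A_44_P311334, did not share that order, since its DOPA/HFS values of 6.21, 6.32 and 5.57 overlapped every group. Array 1 of the 6-OHDA group was the lowest array for the first and second probe.

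**Figure D2:**
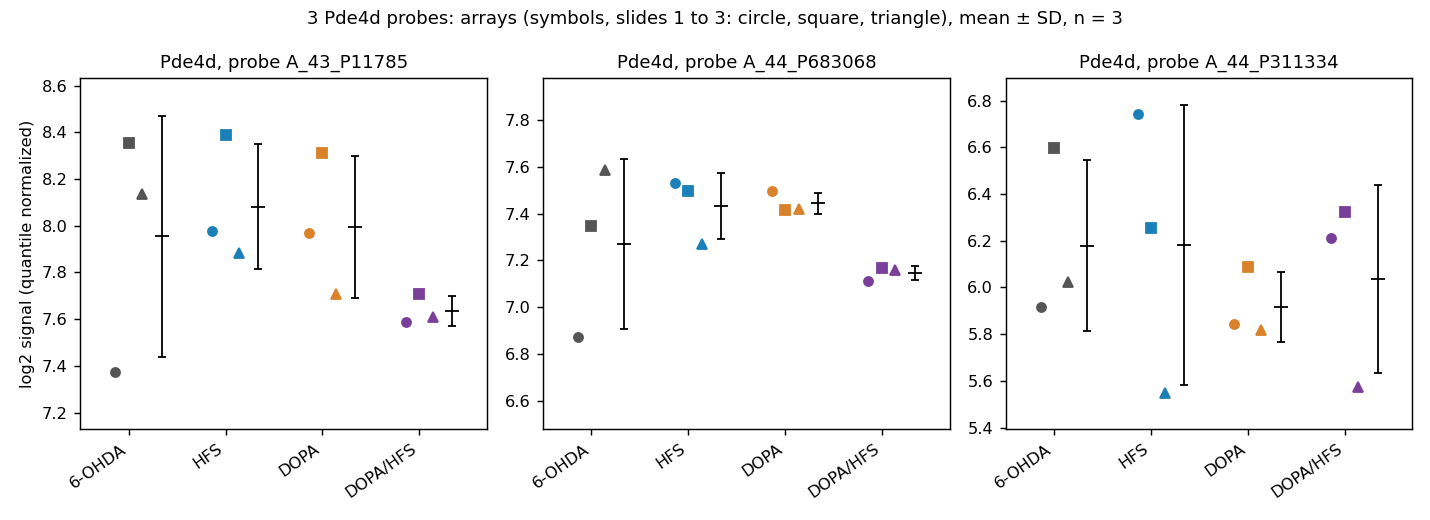
Log2 signal of the 3 Pde4d probes on each array, by group. Symbols are arrays on slides 1, 2 and 3 (circle, square, triangle) and bars are the mean ± SD (n = 3). The DOPA/HFS arrays are tightly grouped and below all HFS arrays for A_43_P11785 and A_44_P683068, but spread from 5.57 to 6.32 for A_44_P311334.

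Pde7b encodes a cAMP-specific enzyme that rolipram does not block. Its signal was 7.17, 7.20 and 7.58 in the 6-OHDA group, 7.17, 7.46 and 7.34 in the HFS group, 7.70, 7.92 and 7.65 in the DOPA group, and 7.73, 7.34 and 7.12 in the DOPA/HFS group. All DOPA arrays were above all 6-OHDA and all HFS arrays, and 1 DOPA/HFS array lay among them. The groups accounted for 50.6% of the squared deviations of Pde7b, the largest share of the 10 genes. Pde9a, whose product is specific for cGMP, gave 11.09, 11.17 and 10.69 in the 6-OHDA group, 10.96, 10.71 and 10.66 in the HFS group, 11.08, 10.94 and 11.37 in the DOPA group, and 10.62, 11.15 and 10.99 in the DOPA/HFS group. Every comparison of Pde9a below had overlapping groups. The median share of squared deviations held by the groups was 19.7% over the 10 genes and 21.1% over 18333 genes, and the median SD within groups was 0.31 and 0.27.

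Of the 5 group comparisons, L-DOPA alone held the largest difference, but no phosphodiesterase passed the test. In DOPA against 6-OHDA, Pde1c was 0.72 higher (SE 0.32, 95% interval 0.01 to 1.42), Pde1a was 0.52 higher (SE 0.49, -0.57 to 1.61) and Pde7b was 0.44 higher (SE 0.19, 0.03 to 0.85). In fold terms the intervals ran from 1.01 to 2.68 for Pde1c and from 1.02 to 1.80 for Pde7b. A gene was called at an adjusted p under 0.1 in limma, which pools the spread over all 12 arrays and 20377 genes, together with a fold over 1.2 or under 0.8. By that rule 0 of 10 members were called, against 0.00491% of all genes, which is 1 gene, and each member's adjusted p was 1.0. Before adjustment, limma gave a p of 0.038 for Pde7b and of 0.046 for Pde1c, so 2 of 10 members were under 0.05 against 2.6% of all genes. The DOPA and 6-OHDA arrays did not overlap for 3 of 10 members, Pde1a, Pde1c and Pde7b, against 6.28% of all genes, and DOPA was higher for all 3. The median difference of the members was 0.12, and that of all genes was -0.01. Without array 2 of 6-OHDA the difference was 0.28 for Pde1c, 0.25 for Pde1a and 0.38 for Pde7b. Within slides 1, 2 and 3 the difference was 0.12, 1.54 and 0.49 for Pde1c and 0.53, 0.72 and 0.07 for Pde7b, whose sign follows from the separate groups. With the slide as a block, limma's unadjusted p was 0.028 for Pde1c and 0.057 for Pde7b, and 3.06% of all genes were under 0.05.

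Against the same 6-OHDA arrays, stimulation alone gave no separated gene. In HFS against 6-OHDA, 0 of 10 members were called, against 0% of all genes, and 0 had an unadjusted p under 0.05, against 2.35%. The groups overlapped for every member, against 5.14% of all genes whose groups did not. The largest difference was 0.45 for Pde1a (SE 0.49, limma adjusted p = 0.998), which was -1.26 on slide 1, 1.58 on slide 2 and 1.01 on slide 3, and ran from 0.03 without array 3 to 1.15 without array 1 of HFS. Pde2a was 0.33 higher (SE 0.29, 95% interval -0.32 to 0.97) and Pde9a differed by -0.21 (SE 0.19, -0.64 to 0.22). Without array 2 of 6-OHDA these became 0.11 for Pde2a and -0.12 for Pde9a. Within slides, Pde9a was lower in HFS on all 3, and Pde4b was higher on all 3 (0.26, 0.04 and 0.09). No share over all genes is given for slide signs, here or for the main effects below. For Pde10a and Pde7b the differences were 0.01 each, with intervals of -0.49 to 0.51 and -0.40 to 0.42. The median over the members was 0.13, against 0.01 for all genes, and was -0.051 without array 2 of 6-OHDA. Of 7 choroid plexus markers, all were on the array and the 6 with a value on all arrays summed to a log2 signal of 12.1 to 16.4 on the HFS arrays, against 8.06 to 8.62 for 6-OHDA, 7.87 to 13.99 for DOPA and 8.14 to 9.81 for DOPA/HFS. The Ttr probe, for the choroid plexus transport protein transthyretin, read 16.3, 11.9 and 15.3 on the HFS arrays and 5.80 to 6.59 on the 6-OHDA arrays. It read 2.41, 10.3 and 13.8 on the DOPA arrays and 8.28, 9.25 and 2.79 on the DOPA/HFS arrays. Kl, of the same list, was well above background on 2 of 12 arrays. The part of choroid plexus tissue in these comparisons was not tested.

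The combined treatment left the members spread on both sides of the lesion alone. In DOPA/HFS against 6-OHDA, 5 members had higher and 5 had lower means, and the median was 0.04 against -0.01 for all genes. The largest differences were 0.46 for Pde1c (SE 0.32, 95% interval -0.24 to 1.17) and -0.32 for Pde4d (SE 0.25, -0.88 to 0.24). Called members were 0 of 10, against 0% of all genes, members with an unadjusted p under 0.05 were 0, against 2.76%, and members whose groups did not overlap were 0, against 4.19%. Pde10a differed by -0.02, with an interval of -0.52 to 0.48, which in fold terms is 0.699 to 1.40. The 3 comparisons above share the 6-OHDA arrays, so their values are not independent. Against 6-OHDA, Pde1c differed by 0.20, 0.72 and 0.46 after HFS, L-DOPA and both, and without array 2 of 6-OHDA by -0.24, 0.28 and 0.02. The Pde4d value in DOPA/HFS was -0.12 without array 2 and -0.61 without array 1 of 6-OHDA.

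**Figure D3:**
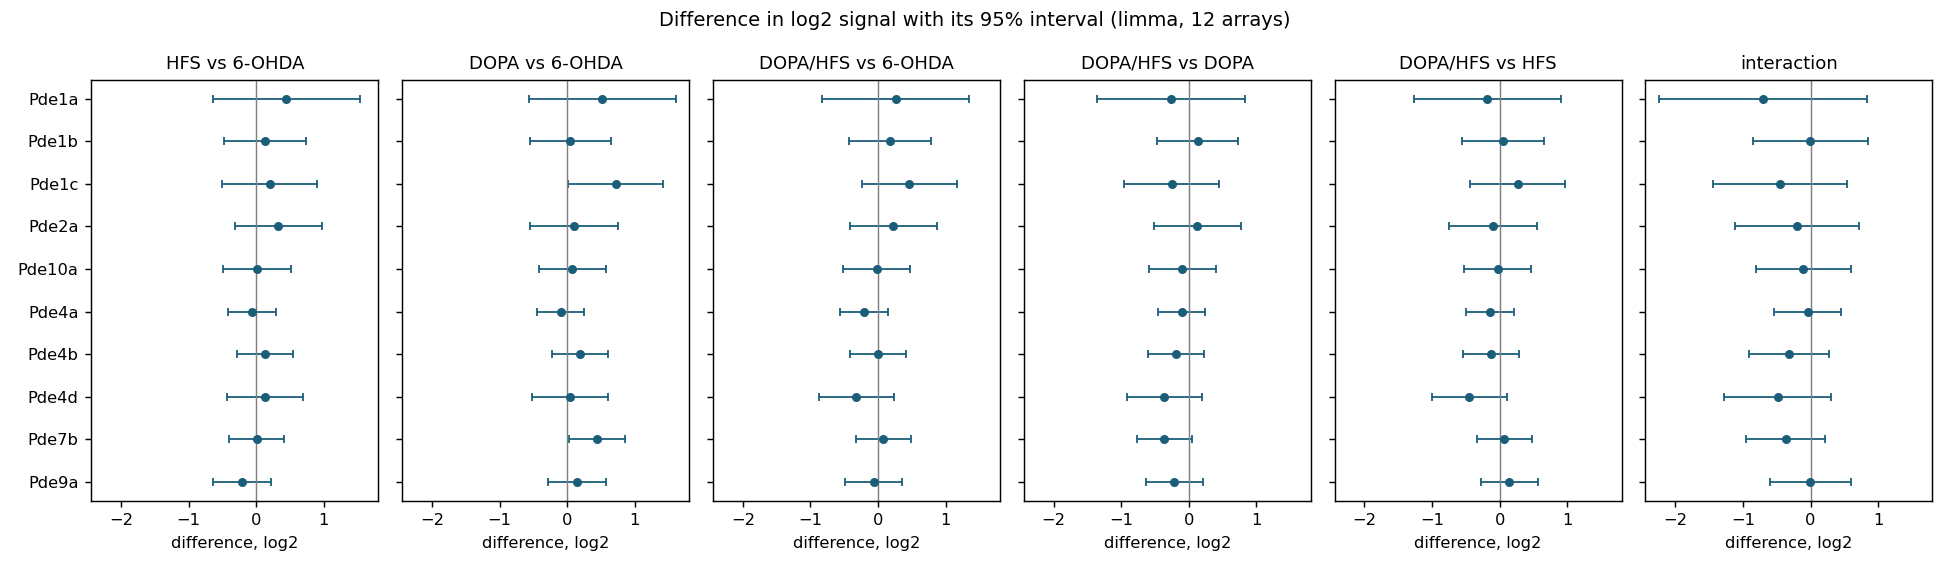
Difference in log2 signal for each of the 10 genes in 5 group comparisons and for the interaction, with 95% intervals from limma on 12 arrays. The intervals of Pde1c and Pde7b in DOPA against 6-OHDA end just above 0 (0.01 and 0.03), and all others cross 0.

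Stimulation added to L-DOPA was compared through DOPA/HFS against DOPA. The means of 8 members were lower and those of 2, Pde1b and Pde2a, were higher, with a median of -0.20 against -0.01 for all genes. Pde4d and Pde7b each differed by -0.36 (SE 0.25 and 0.19, 95% intervals -0.92 to 0.20 and -0.77 to 0.05), and Pde1c by -0.25 (SE 0.32). None was called by limma, against 0% of all genes, and none had an unadjusted p under 0.05, against 3.79%. Without array 2 of DOPA the Pde4d value was -0.20, and without array 3 of DOPA/HFS that of Pde7b was -0.22. By the brightest probe of each gene, Pde1c was the one member of 10 whose arrays did not overlap, against 9.41% of all genes. The arrays of the Pde4d probe A_44_P683068, which is not the brightest, did not overlap either. The Pde4d probes disagreed here, with -0.36 and -0.30 for A_43_P11785 and A_44_P683068 but 0.12 for A_44_P311334 (SE 0.31). L-DOPA added to stimulation was compared through DOPA/HFS against HFS. Pde4d differed by -0.45 (SE 0.25, 95% interval -1.01 to 0.11, limma adjusted p = 1.0) and differed by -0.39, -0.68 and -0.27 within the slides, a sign that follows from the separate groups. Without array 2 of HFS it was -0.29. It was the one member whose groups did not overlap, against 6.37% of all genes. Among the 10 members 0 were called, against 0%, 0 had an unadjusted p under 0.05, against 2.43%, and the median was -0.06 against -0.02 for all genes.

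The main effects used all 12 arrays as 6 against 6. For L-DOPA, the difference was 0.49 for Pde1c (SE 0.23, 95% interval -0.01 to 0.99) and 0.26 for Pde7b (SE 0.13, -0.03 to 0.55), and 0 members were called against 0.00491% of all genes. With 0 of 10 members under an unadjusted p of 0.05, the share over all genes was 2.74%. With the slide as a block, 1 member, Pde1c, passed that unadjusted limit, against 3.49% of all genes. Without array 2 of 6-OHDA the Pde1c value was 0.27. For HFS, the largest differences were 0.23 for Pde2a (SE 0.21) and -0.21 for Pde9a (SE 0.14, 95% interval -0.51 to 0.09). No member was called, against 0% of all genes, and none was under an unadjusted p of 0.05, against 4.36%. Pde9a and Pde4a had lower means with stimulation on all 3 slides, and Pde2a a higher mean on all 3. Leaving out array 2 of 6-OHDA and array 1 of DOPA/HFS together turned the Pde2a value to -0.018, and leaving out either alone gave 0.12 or 0.09.

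The interaction asks whether the difference between stimulated and unstimulated rats depended on L-DOPA. All 10 estimates were below 0, from -0.71 for Pde1a (SE 0.70) to -0.00066 for Pde9a and -0.00030 for Pde1b, with a median of -0.26 against -0.01 for all genes. None passed limma's adjusted p of 0.1, against 0% of all genes, and none was under an unadjusted p of 0.05, against 1.98%. The intervals were wide, from ±0.50 for Pde4a to ±1.54 for Pde1a. Without array 2 of 6-OHDA, 3 of the estimates were above 0, Pde1b at 0.18, Pde2a at 0.02 and Pde10a at 0.0090, and Pde1c was at -0.01 in place of -0.45. Pde1a ran from -1.41 to -0.29 without array 1 or array 3 of HFS, and Pde4d was -0.20 without array 1 of 6-OHDA. The median was -0.059 without array 2 of 6-OHDA and -0.47 without array 1 of DOPA/HFS. For Pde4d the estimate was -0.49 and -0.46 for its first 2 probes and 0.12 for A_44_P311334.

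Some of the phosphodiesterases followed each other from rat to rat. Pde1b and Pde2a correlated with Pearson's r = 0.96 and Spearman's rho = 0.97 over 12 arrays, and with r = 0.97 after group means were removed. Without the 2 arrays farthest from the Pde1b median, array 1 of DOPA/HFS and array 2 of 6-OHDA, r was 0.93. Pde2a was the 9th nearest gene to Pde1b among 18332 genes. Both genes also followed the first principal component of all genes, which held 30.6% of the variance, with r = 0.87 for Pde1b and 0.89 for Pde2a, and 970 genes had an r over 0.8 with Pde1b. The likeness of the pair was therefore shared with many genes. Of the other pairs among 45, Pde2a and Pde9a ran in opposite directions (r = -0.76, rho = -0.76, and -0.68 without 2 arrays). Pde10a followed Pde7b with r = 0.69 and rho = 0.76, and with r = 0.76 without array 2 of DOPA and array 1 of DOPA/HFS. It followed Pde4b with r = 0.74 and rho = 0.69, but with 0.40 without arrays 1 and 3 of DOPA/HFS. Since different arrays were left out, the values so obtained do not rank these pairs. Pde7b had the weakest relation to the first component, with r = 0.21. These are descriptions of 12 arrays that share slides and treatments. The genes whose signal was nearest to that of Pde10a over the 12 arrays were Atp2b1, a plasma membrane calcium pump (r = 0.92), Dclre1c, a nuclease of DNA repair (r = 0.89), and Hsd17b7, an enzyme of steroid and cholesterol synthesis (r = 0.88).

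**Figure D4:**
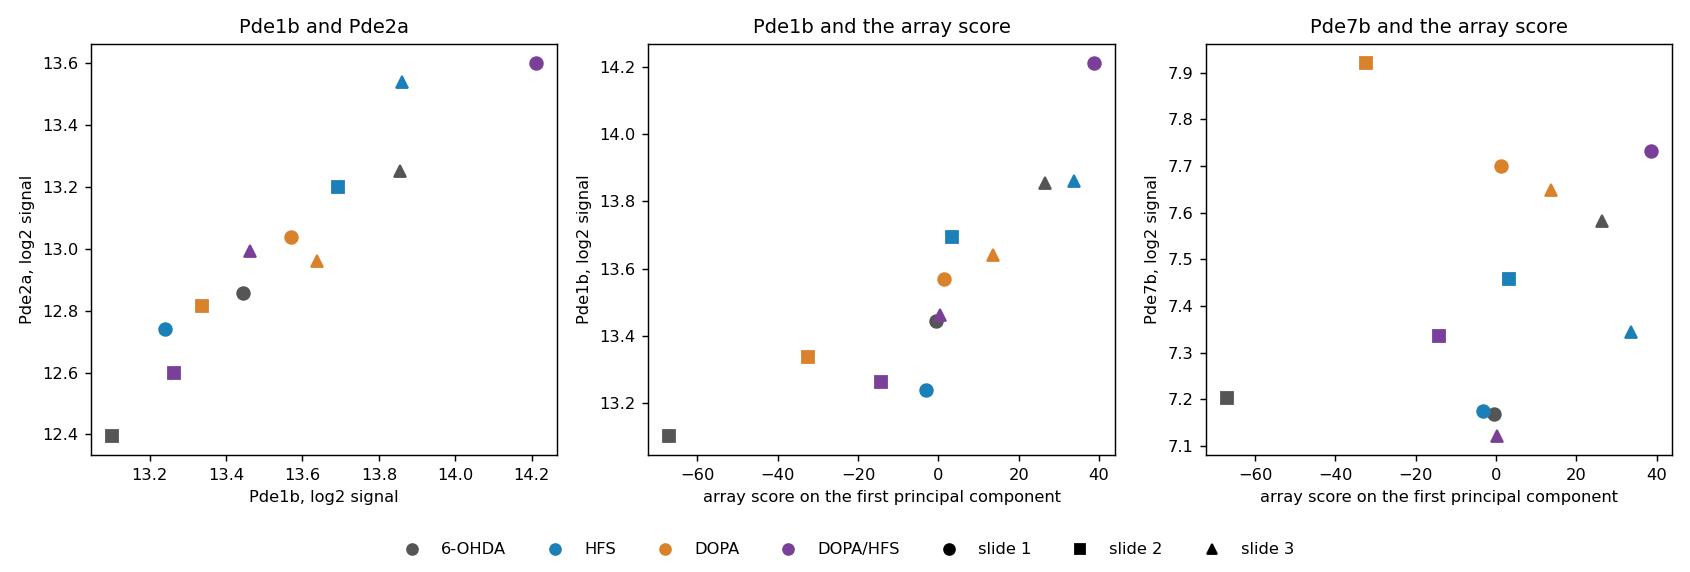
Left, log2 signal of Pde2a against Pde1b on 12 arrays. Middle and right, log2 signal of Pde1b and of Pde7b against each array's score on the first principal component of 18333 genes. Colours are groups and symbols are slides. Pde1b and Pde2a lie along a line from array 2 of 6-OHDA to array 1 of DOPA/HFS (r = 0.96), whereas Pde7b does not follow the score (r = 0.21).

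The rest of the pathway held no called gene either. Of 14 other phosphodiesterases, 13 were on the array and 7 passed the filter, and 0 of those were called in any comparison. Over all genes at most 0.00491%, which is 1 gene, was called in a comparison, so 0 calls do not set this list apart. Pde8a, which encodes a cAMP-specific enzyme of high affinity, had the largest L-DOPA main effect among them, -0.30 (SE 0.24, limma adjusted p = 1.0), followed by Pde3b at -0.06 and Pde6h at -0.03. For stimulation the largest were Pde6h at 0.40 (SE 0.55), Pde8a at 0.26 and Pde8b at 0.22. Of 45 makers, effectors and targets of cAMP and cGMP, such as adenylyl and guanylyl cyclases, protein kinase A subunits and CREB, 43 were on the array and 37 were tested. None was called in either direction in any of the 8 contrasts, against the same share of all genes. The median L-DOPA main effect was 0.01, with 20 genes higher and 17 lower. Npr1, the natriuretic peptide receptor that makes cGMP, was the one gene of both lists with an unadjusted p under 0.05 in a main effect. Over all genes 2.74% were under that limit in the L-DOPA main effect and 4.36% in the HFS main effect. Npr1 signal ran from 11.7 to 12.2 on the 6 arrays without L-DOPA and from 11.3 to 11.8 on the 6 with it, and the 2 sets overlapped. The difference was -0.30 (SE 0.12), with an unadjusted p of 0.027 in limma and an adjusted p of 1.0. Creb1, a transcription factor of the cAMP response, gave 0.43 (SE 0.22), and Akap5, an anchor of protein kinase A, gave -0.31 (SE 0.19). The lowest Creb1 signal, 4.56, was on array 2 of 6-OHDA, against 5.35 to 6.30 on the other arrays. For stimulation the largest were Gucy1a2 at -0.25, and the cyclases Adcy9 and Adcy5 at -0.21 each.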

How the data were processed

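Per the file headers, the deposited scanner files hold spot intensity values from Agilent Feature Extraction 9.1, 1 colour, with local background subtracted. The deposited log2 table holds values the authors normalized by quantiles between arrays. It ran from 5.60 to 17.0 and served as an alternative. A genome build for the probes is not given in the sources used here. From the intensity values, log2 signals were quantile normalized, spots marked as outliers were left out and spots of a probe were averaged. Probes well above background on at least 0.4 of the arrays were kept, and the brightest probe stood for its gene. limma 3.58.1 in R 4.3.3 fitted the 4 groups over 12 arrays, with Benjamini-Hochberg adjustment over 20377 genes. A call needed a fold over 1.2 or under 0.8, except for the interaction, and an adjusted p under 0.1. limma stood in for the authors' SAM test, since it fits all genes with a pooled spread. The count of groups that do not overlap stood in for their Wilcoxon test. At 3 against 3 an exact two-sided Wilcoxon test cannot go below p = 0.1. The script was tested on simulated data.

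Named were all 10 members, the pathway genes with an unadjusted p under 0.05 or the 3 largest differences in a main effect, and the 3 genes nearest to Pde10a. A gene that this rule names is not reported here. The members and lists were chosen with earlier results of these data known. Each rat gave 1 array, and p-values measure the spread between arrays. The replicate number was the number of the slide in the file headers. After group means were removed, same-numbered arrays of other groups correlated with a median r of 0.11 (-0.29 to 0.48). For arrays of other numbers and other groups the median was -0.07 (-0.45 to 0.54). The fit was made with and without the slide as a block. Alternatives covered the normalization, background, source of values, filter, probe choice, thresholds, outlier spots, arrays fitted and each array left out. Leaving out 2 arrays together was chosen after seeing the data.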

Additional observations from a re-analysis of the deposited data

How the results depend on the processing

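No phosphodiesterase was called under any setting, of which 22 were refitted for the 5 group comparisons and 21 for the main effects and the interaction, and the lowest adjusted p of a member was 0.526. With the replicate block (the slide), the Pde1c difference in DOPA against 6-OHDA stayed at 0.72 with an SE of 0.28, 1 member in place of 2 had an unadjusted p under 0.05 there, against 3.06% of all genes, and no call was altered. That unadjusted limit was met in 13 of 22 settings for Pde7b and in 8 of 22 for Pde1c. Settings that left out an HFS or DOPA/HFS array gave the same differences as the main fit, so the settings are not independent. Of 80 differences, 54 were smaller than their standard error and 42 of these took the other sign in at least 1 setting. Of the 26 at least as large as it, 1 took the other sign in these settings. That was the HFS main effect of Pde2a, at -0.018 with 2 arrays left out together, a setting chosen after seeing the data. The third Pde4d probe, A_44_P311334, was not counted among these settings. Taken by itself, that probe reversed the value of Pde4d in DOPA/HFS against DOPA (0.12) and in the interaction (0.12). When probes were averaged per gene, 0 in place of 1 member had separate groups in DOPA/HFS against HFS. Leaving out 1 array moved the median of the members from 0.10 to 0.25 in DOPA against 6-OHDA, from -0.051 to 0.21 in HFS against 6-OHDA, from -0.097 to 0.20 in DOPA/HFS against 6-OHDA, from -0.24 to -0.12 in DOPA/HFS against DOPA, from -0.24 to 0.08 in DOPA/HFS against HFS, from -0.081 to 0.12 in the L-DOPA main effect, from -0.11 to 0.02 in the HFS main effect and from -0.47 to -0.059 in the interaction, and both arrays left out gave -0.051 in HFS against 6-OHDA. The cause was not tested.

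With 3 arrays a group, the 95% interval of a group difference reached 0.35 log2 units to either side for Pde4a and 1.09 for Pde1a, so smaller differences could not be resolved.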
